A study of Mus musculus with 59 samples.

Results

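The genes of the unfolded protein response and the integrated stress response were examined in the prefrontal cortex of young mice. The members were 33 named genes of 18088 in the deposited expression table, taken by symbol. They were chosen with earlier results of these data known. All 33 were found and measured above the filter on low values. They comprise 14 chaperones and folding enzymes of the endoplasmic reticulum (ER), 4 genes of ER-associated degradation (ERAD), 4 genes of the stress sensors and their transcription factor Xbp1, 4 transcription factors of the integrated stress response, and 7 targets of its factor ATF4.

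Unfolded protein in the ER is sensed by IRE1 (Ern1), PERK (Eif2ak3) and ATF6. ATF6 and the spliced form of XBP1 switch on ER chaperone and degradation genes, while PERK phosphorylates a translation initiation factor, which lowers general protein synthesis and favours translation of ATF4. Other kinases, such as the amino acid sensor GCN2, reach the same initiation factor without ER stress, so ATF4 targets and ER chaperones can move separately.

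The mice were on the C57BL/6J strain and either heterozygous for Dyrk1a+/I48X, a stop mutation in the gene of a kinase, or wild type. Through the milk of their dam they received lithium, fluoxetine (a serotonin reuptake inhibitor) or vehicle from postnatal day 3 to day 24, and all were analysed at day 25. There were 10 heterozygous lithium, 10 heterozygous fluoxetine, 10 heterozygous vehicle, 10 wild-type lithium, 9 wild-type fluoxetine and 10 wild-type vehicle mice, with 5 of each sex in a group except 4 wild-type fluoxetine males. Doses and litters are not given in the labels. Since a drug reached a whole litter through its dam, effects of litter and drug cannot be told apart, and a p-value here speaks only of mouse-to-mouse spread.

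The libraries held between 24391022 and 33842466 gene counts each. Dyrk1a itself was at 2141 to 4214 normalised read counts in the 30 heterozygous libraries and 2066 to 2327 in the 29 wild-type libraries, so transcript level does not check the genotype label of a stop mutation. All 8 cortical pyramidal marker genes were measured in every group. The 16 olfactory bulb marker genes were also present, with a summed level of 7211 to 70836 across the libraries of heterozygous mice and 7246 to 44422 across those of wild-type mice. 2 libraries, heterozygous fluoxetine males 3 and 4, stood apart from the other 57, and results that rest on them are given with and without them. In whole tissue, fewer cells of a type and less RNA per cell cannot be told apart.

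Promoter sequence is shown first for the members that carry the ER stress element (ERSE), the site through which ATF6 is known to act together with the factor NF-Y. Promoter windows of 300 bases, 250 before and 50 after the transcription start in RefSeq on GRCm38.p6, were available for 30 of 33 members. The ERSE was searched as CCAAT, any 9 bases, then CCACG, on both strands. It was found in 39 of 32851 windows of all genes (0.1187%) and in the windows of 8 of 30 members. These were 7 of the 12 ER chaperones with a window and 1 of 4 ERAD genes, with 0 of 3 sensor genes, 0 of 4 integrated stress response factors and 0 of 7 ATF4 targets. The 9 matches are given below from 5′ to 3′ on the strand that reads CCAAT, with the 2 fixed parts in capitals.
Hspa5, chr2:34772025-34772043 (+), 65 to 47 bases before the start: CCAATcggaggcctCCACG
Calr, chr8:84847075-84847093 (+), 162 to 144 bases before the start: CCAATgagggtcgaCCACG
Hsp90b1, chr10:86705638-86705656 (-), 212 to 194 bases before the start: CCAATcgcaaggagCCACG
Hsp90b1, chr10:86705533-86705551 (+), 107 to 89 bases before the start: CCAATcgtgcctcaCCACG
Canx, chr11:50325800-50325818 (-), 145 to 127 bases before the start: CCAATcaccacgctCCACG
Pdia6, chr12:17266491-17266509 (+), 98 to 80 bases before the start: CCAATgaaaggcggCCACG
Dnajc3, chr14:118937827-118937845 (+), 105 to 87 bases before the start: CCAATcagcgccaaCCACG
Creld2, chr15:88819520-88819538 (-), 126 to 108 bases before the start: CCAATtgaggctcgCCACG
Syvn1, chr19:6046532-6046550 (+), 44 to 26 bases before the start: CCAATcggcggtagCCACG

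Each ERSE also counts as a match to CCAAT and to CCACG alone, which were far commoner, in 37.41% and 32.77% of all windows. A second form of the element, ATTGG, 1 base, then CCACG, was added to the search after the first result was seen. It was in 12 windows (0.03653%), 2 of them of members, Herpud1 and Dnajb11. The C/EBP-ATF composite site through which ATF4 acts, searched as TGATGNAAN, was in 3.954% of windows and in those of Trib3, Asns, Chac1 and Herpud1. A cyclic AMP response element, TGACGTCA, was in 1.79% of windows and in that of Ppp1r15a. The unfolded protein response element, TGACGTGG, was in 0.6758% of windows and in none of the 32 windows of members. A match is a description of the letters, not evidence of a bound site, and a missing match says only that these letters were not in the window.

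The windows of Hspa5, which showed the smallest p under lithium, and of Asns, an ATF4 target without ERSE, are given whole to show the element in its context, with matched sites in capitals. The first is chr2:34771840-34772139 on the plus strand and the second chr6:7693160-7693459 on the minus strand.
Hspa5: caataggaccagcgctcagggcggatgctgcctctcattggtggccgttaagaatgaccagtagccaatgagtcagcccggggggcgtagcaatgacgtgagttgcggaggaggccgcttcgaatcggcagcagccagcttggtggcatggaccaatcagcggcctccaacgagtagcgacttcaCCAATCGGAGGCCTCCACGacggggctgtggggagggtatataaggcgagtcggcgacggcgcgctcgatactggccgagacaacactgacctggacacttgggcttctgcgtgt
Asns: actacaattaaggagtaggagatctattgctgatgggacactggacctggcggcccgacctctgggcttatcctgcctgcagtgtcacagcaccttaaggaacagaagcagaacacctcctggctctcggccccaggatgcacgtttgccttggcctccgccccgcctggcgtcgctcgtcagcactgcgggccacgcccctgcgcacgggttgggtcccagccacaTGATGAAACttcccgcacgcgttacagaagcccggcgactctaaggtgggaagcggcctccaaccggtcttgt

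The levels of the members spanned a wide range. Per kilobase of exon, averaged over 59 libraries, the calcium-binding chaperone Calr was highest at 3110 normalised read counts, followed by Hsp90b1 (GRP94) at 2280, Hspa5 (BiP) at 1900, the lectin chaperone Canx at 1889 and the disulfide isomerase Pdia3 at 1768. The transcript of Atf4 stood at 1376 and that of Xbp1 at 628. The lowest were Ern1 at 46.7, Cebpb at 39.8 and the pseudokinase gene Trib3 at 3.49. The ER chaperones thus formed the top 5, and an inducible ATF4 target the bottom.

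Lithium raised most ER chaperones when averaged over the genotypes. Over genotypes and sexes, 13 of 33 members passed an adjusted p of 0.05 in limma, all higher in lithium mice and 0 lower. Without the outlying fluoxetine males 3 and 4, which enter through the shared estimate of spread, 14 members were called higher, with Pdia4 added, and 1 lower, Cebpb. The share of all genes called in that fit is not given here, so the added calls are not a result about the members alone. With all libraries, 2.12% of all 17901 genes tested were called, 1.16% in the direction of higher in lithium mice. The 13 comprised 12 of 14 ER chaperones and 1 of 4 ERAD genes, with 0 of 4 sensor genes, 0 of 4 integrated stress response factors and 0 of 7 ATF4 targets. The median log2 change was 0.15 for the ER chaperones, 0.09 for ERAD, 0.03 for sensors, -0.05 for integrated stress response factors and -0.01 for ATF4 targets, beside 0.00 for all genes. Changes are differences of log2(value + 1), and ± after a change gives its standard error.

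Hspa5, the ER Hsp70 that binds unfolded chains and holds the sensors inactive, had a lowest, median and highest level of 7157, 8709 and 9887 normalised read counts in heterozygous lithium mice, against 6714, 7123 and 8117 in heterozygous vehicle mice. In wild-type lithium mice the same values were 7836, 8786 and 9743, against 6525, 7495 and 9040 in wild-type vehicle mice. The lithium groups lay higher but overlapped the vehicle groups, and 19 of 20 lithium mice were above the mean of vehicle mice of their sex. Over both genotypes the means were 8706 ± 773 with lithium and 7425 ± 694 with vehicle (SD, n = 20 each), a change of 0.23 ± 0.04, or 1.17-fold (limma adjusted p = 0.000832).

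Sdf2l1, a small BiP cofactor, showed the largest change of the 33, at 0.44 ± 0.09 or 1.35-fold (limma adjusted p = 0.00238). Its lowest, median and highest levels were 246, 325 and 463 in the 20 lithium mice, against 190, 241 and 302 in the 20 vehicle mice. All 20 lithium mice were above the vehicle mean of their sex, although the ranges overlapped. Creld2, a secreted disulfide isomerase induced by ER stress, stood at 285, 349 and 416 in lithium mice, against 243, 297 and 359 in vehicle mice. Its change was 0.28 ± 0.06 (1.22-fold, limma adjusted p = 0.00182), with 19 of 20 lithium mice above the vehicle mean.

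**Figure D1:**
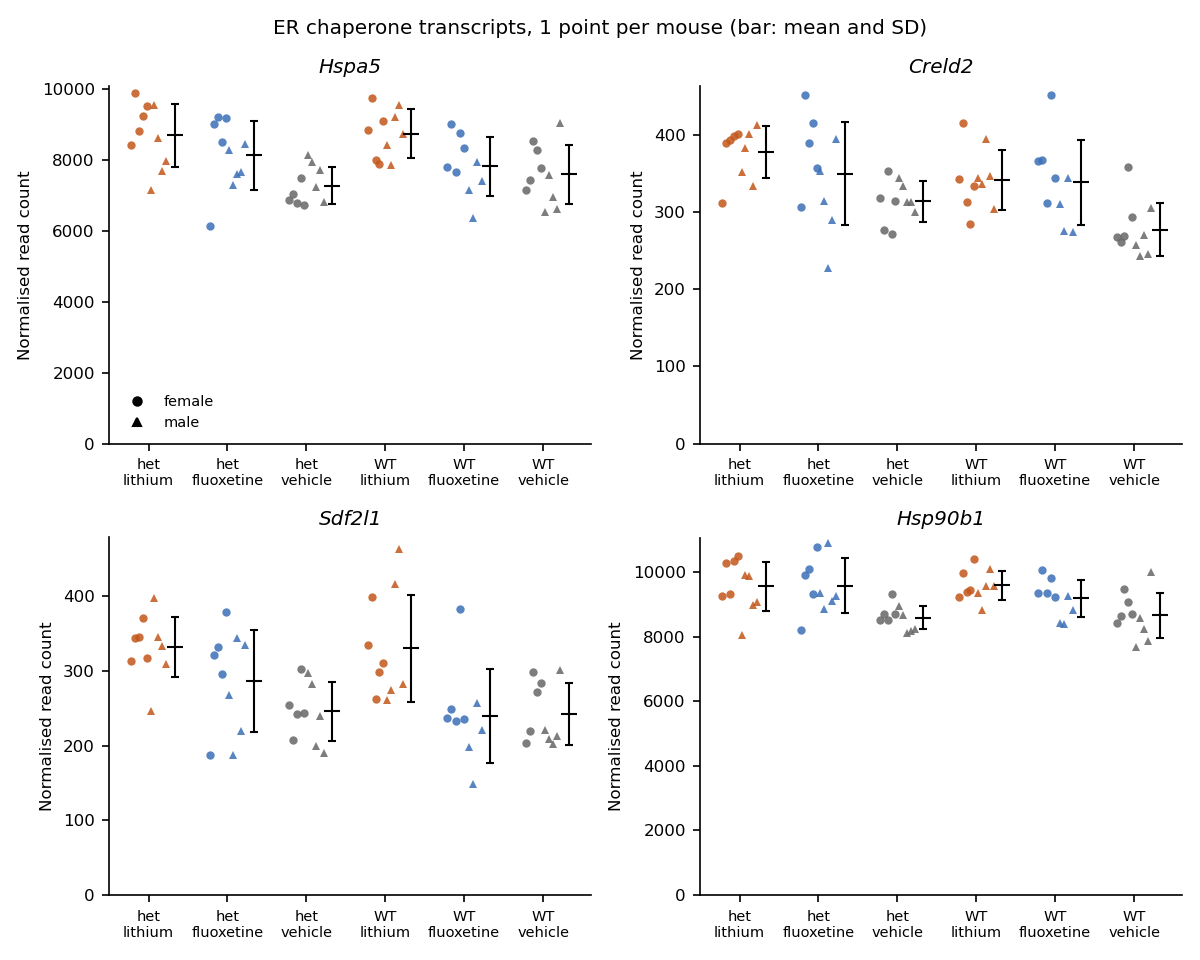
Normalised read count (vertical axis, from 0) of Hspa5, Creld2, Sdf2l1 and Hsp90b1 in each mouse by genotype (het, heterozygous; WT, wild type) and drug, with circles for females, triangles for males and bars for the mean and SD. The lithium mice lie above the vehicle mice of the same genotype on average, with overlap; Sdf2l1 reaches 463 with lithium and 302 with vehicle.

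Hsp90b1, the ER Hsp90, had a lowest, median and highest level of 8062, 9508 and 10484 in lithium mice, against 7683, 8606 and 9995 in vehicle mice, a change of 0.15 ± 0.03 (limma adjusted p = 0.00238). Dnajc3, the BiP co-chaperone also called P58IPK that inhibits PERK, stood at 1846, 2019 and 2255 with lithium, against 1668, 1847 and 2034 with vehicle, a change of 0.12 ± 0.03 (limma adjusted p = 0.00369). Pdia3, which folds glycoproteins with the lectin chaperones, stood at 5045, 5738 and 6166 with lithium, against 4749, 5240 and 6011 with vehicle, a change of 0.12 ± 0.03 (limma adjusted p = 0.00385). In each of these genes the upper part of the vehicle range was shared with the lithium mice.

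The other chaperones that rose were Calr (0.17 ± 0.04), Canx (0.10 ± 0.03), the J-protein Dnajb11 (0.12 ± 0.03), the nucleotide exchange factor Hyou1 (0.11 ± 0.03), the disulfide isomerase Pdia6 (0.16 ± 0.04) and Manf (0.15 ± 0.04), an ER-resident neurotrophic factor. Their limma adjusted p-values ran from 0.00444 for Calr to 0.0384 for Canx. Among ERAD genes Syvn1, the ubiquitin ligase HRD1, rose by 0.07 ± 0.02 (limma adjusted p = 0.0318). Its partner Sel1l changed by 0.10 ± 0.04 and the ubiquitin-like ER protein Herpud1 by 0.11 ± 0.04, and neither passed. The mannosidase-like Edem1 stood at -0.01 ± 0.03. The 2 chaperones that did not pass were the disulfide isomerase Pdia4 (0.22 ± 0.07, adjusted p = 0.0824 in limma) and the J-protein Dnajb9 (0.06 ± 0.02, adjusted p = 0.266 in limma).

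The sensor and integrated stress response genes gave no call with all libraries. Xbp1 was at 0.10 ± 0.03 (limma adjusted p = 0.0915), Eif2ak3 at 0.04 ± 0.04, Atf6 at 0.01 ± 0.07 and Ern1 at -0.08 ± 0.05. Atf4, the central factor, averaged 3266 ± 248 with lithium and 3270.4 ± 173 with vehicle (SD, n = 20 each), a log2 change of -0.00 ± 0.03, with a 95% interval of -0.06 to 0.06. Its relative Atf5 was at -0.11 ± 0.07, the proapoptotic CHOP gene Ddit3 at 0.12 ± 0.05 and Cebpb at -0.26 ± 0.10. Without fluoxetine males 3 and 4 Cebpb was called lower (-0.26 ± 0.07, limma adjusted p = 0.0249). Among ATF4 targets, Chac1, which degrades glutathione, was at 0.18 ± 0.07, asparagine synthetase Asns at 0.07 ± 0.06 and the stress-induced inhibitor of mTORC1 Sesn2 at 0.05 ± 0.06. The serine synthesis enzymes Psat1 and Phgdh stood at -0.01 ± 0.03 and -0.05 ± 0.08, and the phosphatase subunit gene Ppp1r15a (GADD34) at -0.06 ± 0.07. Trib3 was at -0.21 ± 0.20, with a median of only 5.54 normalised read counts in lithium mice and 7.12 in vehicle mice, a level at which the +1 understates changes.

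**Figure D2:**
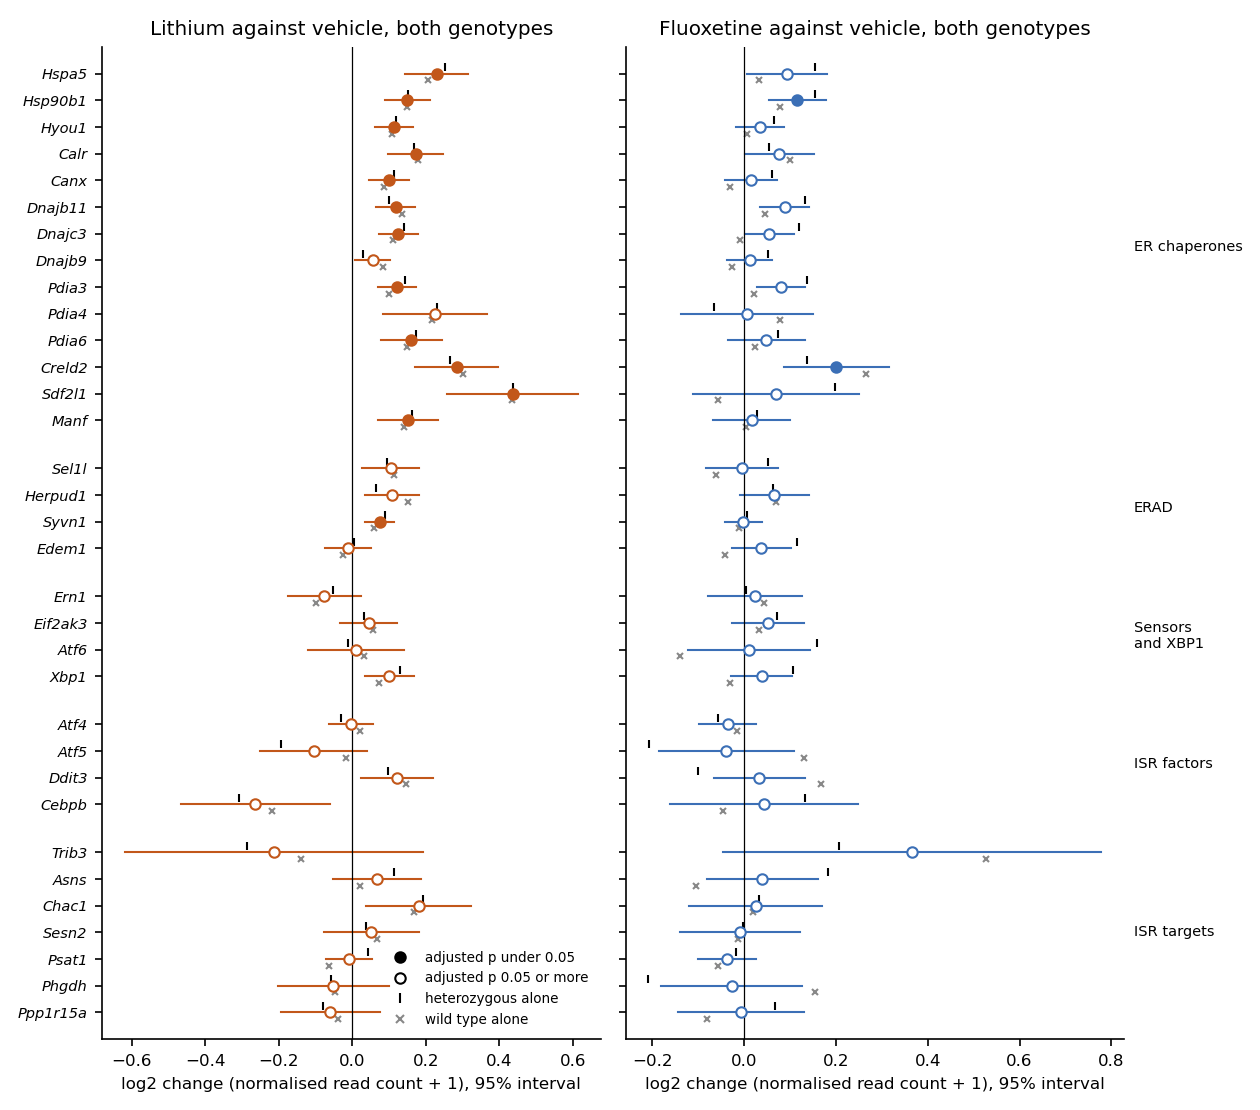
Log2 change (horizontal axes, 95% interval) of each member in lithium against vehicle mice (left) and fluoxetine against vehicle mice (right), by role down the page, with filled points for limma adjusted p under 0.05 and small marks for heterozygous and wild-type mice alone. 12 of 14 ER chaperones are filled on the left and 2 on the right; the scales of the 2 panels differ.

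All 8 members with an ERSE were among the 13 that rose with lithium, with a median log2 change of 0.16 and a range of 0.07 to 0.28. Of the 22 members with a window and no ERSE, 3 rose, namely Dnajb11, Pdia3 and Sdf2l1, and the median of the 22 was 0.05. Of all genes tested, 1.16% were called higher. ERSE went with role, since 7 of the 8 members with it are ER chaperones. The ER chaperones among the 22 were those 3, with the largest change of all members in Sdf2l1, and Pdia4 and Dnajb9, which did not pass. The part of role in this contrast was not tested. Hyou1 and Manf also rose and had no window in the table. The ERSE was in a window of 37 genes in all, of which 20 were tested. The 12 of these that were not members gave 0 calls in limma. A change above 0 was seen in 11 of the 12, beside 51.4% of all genes, and the median of the 12 was 0.07. Among these changes were one close to 0 (Pan2, 4.09e-05 ± 0.05) and an imprecise one (Xlr3b, 0.45 ± 0.29). This look at all ERSE genes was chosen after the member results were seen.

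Genotypes were then compared for their response to lithium. In heterozygous mice alone 2 members were called in limma, Hspa5 (0.25 ± 0.06, adjusted p = 0.0312) and Pdia3 (0.14 ± 0.04, adjusted p = 0.04997), beside 0.497% of all genes. Leaving out single libraries ended the call of Hspa5 in 10 of 20 cases and that of Pdia3 in 15 of 20, with 0 to 3 members called. In wild-type mice alone 0 members were called in limma, beside 0.162% of all genes, with 18 of 33 at an unadjusted p under 0.05, beside 6.86% of all genes, and 0 called by edgeR. Hspa5 changed by 0.21 ± 0.06 in wild-type mice, Creld2 by 0.27 ± 0.08 in heterozygous and 0.30 ± 0.08 in wild-type mice, and Sdf2l1 by 0.44 ± 0.13 in heterozygous and 0.43 ± 0.13 in wild-type mice. The difference between the genotypes in the lithium effect gave 0 called members and 0% of all genes in limma, 0 members at an unadjusted p under 0.05, beside 2.78% of all genes, and 0 by edgeR. The 95% interval of that difference, heterozygous minus wild type, was -0.13 to 0.22 for Hspa5, -0.26 to 0.19 for Creld2 and -0.35 to 0.36 for Sdf2l1. Differences of any size within these intervals remained compatible with these data.

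The lithium effect in females minus that in males likewise gave 0 called members and 0% of all genes in limma, with 2 of 33 members at an unadjusted p under 0.05 (Chac1 and Sel1l), beside 12.3% of all genes, and 0 calls by edgeR. All 10 oligodendrocyte genes had a change below 0 with lithium (median -0.18, 0 called). All 5 blood genes were higher (median 0.53, 0 called), with a summed level of 8171 to 29275 in lithium mice and 2677 to 18562 in vehicle mice, and none was at 0 throughout. Of 18 immediate early genes 9 fell and all 18 had a change below 0 (median -0.45), and their sum was 14860 to 30179 in lithium mice and 20256 to 40505 in vehicle mice. Of 12 glucocorticoid-responsive genes Zbtb16 rose (0.54 ± 0.07, limma adjusted p = 2.62e-06) and Per1 fell (-0.29 ± 0.06, limma adjusted p = 0.00268), with a median of -0.00 over the list and a sum of 9653 to 12533 in lithium mice and 10350 to 11990 in vehicle mice. The part of these in the chaperone result was not tested. For the olfactory bulb genes (0 of 16 called, median -0.08), a fit with their mean level as a covariate gave 14 called members. The share of all genes called in that covariate fit is not given here.

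Few pathway neighbours outside the 33 were called in limma with lithium, beside 2.12% of all genes. Of 22 other ER folding genes 1 rose, the oxidase Ero1lb (0.17 ± 0.03, limma adjusted p = 0.00234). Of 18 other ERAD genes, 22 translocation genes, 10 integrated stress response regulators and 9 other sensor genes, 0 were called in limma. Of 30 other ATF4 or integrated stress response targets, the amino acid transporter Slc7a3 rose (0.34 ± 0.09, adjusted p = 0.043 in limma) and the mTORC1 inhibitor Ddit4 fell (-0.36 ± 0.08, adjusted p = 0.0085 in limma). Of 14 cytosolic heat shock genes Hspa1b rose (0.40 ± 0.11, adjusted p = 0.0308 in limma).

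Fluoxetine was compared with the same vehicle mice, so its values and those of lithium share controls and are given side by side only. Over both genotypes 2 members were called in limma, both higher, beside 1.45% of all genes called higher and 3.09% called in either direction. Hsp90b1 changed by 0.12 ± 0.03 with fluoxetine (limma adjusted p = 0.0278), with a lowest, median and highest level of 8207, 9319 and 10908 in the 19 fluoxetine mice, against 7683, 8606 and 9995 in the 20 vehicle mice. Creld2 changed by 0.20 ± 0.06 (limma adjusted p = 0.0369), with 228, 344 and 452 in fluoxetine mice, against 243, 297 and 359 in vehicle mice. The drug groups overlapped in both genes, and 10908 for Hsp90b1 and 228 for Creld2 were both from the outlying male 3. Without males 3 and 4 the limma adjusted p was 0.0552 for Hsp90b1 (0.10 ± 0.03) and 0.00501 for Creld2 (0.25 ± 0.05), so that 1 member was called. With all libraries, leaving out single libraries ended the call of Creld2 in 11 of 39 cases. Hspa5 was at 0.09 ± 0.04 and Sdf2l1 at 0.07 ± 0.09, and neither passed. All 14 ER chaperones had a change above 0, with a median of 0.06. In the same comparison 13 of 18 immediate early genes fell, 16 of 16 olfactory bulb genes had a change above 0 (median 0.61, 0 called), and 4 of 12 glucocorticoid-responsive genes rose while 2 fell. Their part in the member values was not tested.

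In heterozygous mice alone fluoxetine gave 3 called members in limma, Pdia3, Hsp90b1 and Dnajb11, beside 4.27% of all genes. Pdia3 averaged 5713 ± 379 with fluoxetine and 5188 ± 254 with vehicle (SD, n = 10 each), a change of 0.14 ± 0.04 (limma adjusted p = 0.0233), and 9 of 10 fluoxetine mice were above the vehicle mean of their sex. Without fluoxetine males 3 and 4, the limma adjusted p-values were 0.126 for Pdia3, 0.202 for Hsp90b1 and 0.232 for Dnajb11, so that 0 members were called. In wild-type mice fluoxetine gave 0 called members in limma, beside 0.447% of all genes, with Creld2 and Ddit3 at an unadjusted p under 0.05, beside 17.5% of all genes, and 0 calls by edgeR. The fluoxetine effect differed between genotypes in 0 members and 0% of all genes in limma, with 9 of 33 members at an unadjusted p under 0.05, beside 21.9% of all genes, and 0 by edgeR. Its difference between females and males gave 0 members and 0% of genes in limma, with 7 of 33 members at an unadjusted p under 0.05, beside 16% of all genes, and 0 by edgeR.

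The drugs were also compared directly. Lithium mice were higher than fluoxetine mice in 4 members, beside 3.77% of all genes called higher in limma and 6.58% called in either direction. These were Sdf2l1 (0.37 ± 0.09, limma adjusted p = 0.0115), Syvn1 (0.08 ± 0.02, limma adjusted p = 0.0195), Manf (0.14 ± 0.04, limma adjusted p = 0.0378) and Hspa5 (0.14 ± 0.04, limma adjusted p = 0.0445). Sdf2l1 averaged 331 ± 56.4 with lithium (SD, n = 20) and 265 ± 68.2 with fluoxetine (SD, n = 19). 19 of 20 lithium mice were above the fluoxetine mean of their sex. Cebpb was at -0.31 ± 0.10 and did not pass. Sdf2l1 and Syvn1 were called whichever single library was left out. The calls of Hspa5 and Manf ended in 22 and 13 of 39 such cases, and the count of called members ran from 2 to 11, with 11 without heterozygous fluoxetine male 5. Without heterozygous fluoxetine males 3 and 4 together, Hspa5 and Manf were not called either. Sdf2l1 and Syvn1 were called in all 11 alternative fits.

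In heterozygous fluoxetine males 3 and 4, 5 of 33 members were above all of the other 57 libraries and 3 were below all of them. Of all 17901 genes tested, 14.5% were above and 10.9% below in the same way, so both counts were near the background share. Cebpb was at 208 and 120 normalised read counts, against 37.7 to 84.2 in the other 57 libraries. Sesn2 was at 883 and 504, against 306 to 494, and Ppp1r15a at 919.5 and 605, against 322 to 498. Eif2ak3 was at 1302 and 951, against 649 to 878, and Edem1 at 862 and 732, against 533 to 717. These 5 are a sensor, an ERAD gene, a transcription factor and 2 ATF4 targets, all higher in both libraries than in any other mouse.

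The 3 members below all other libraries were Pdia4 at 387 and 696, against 828 to 1315, Phgdh at 635 and 606, against 908 to 1675, and Psat1 at 2018 and 2082, against 2424 to 3270. Atf4 was at 3673 and 3087, within the 2823 to 3789 of the others, and Hspa5, at 7596 and 7646, was within 6118 to 9887. The ATF4 targets Psat1 and Phgdh were thus low in these libraries, where the ATF4 targets Sesn2 and Ppp1r15a were high. Of the remaining ATF4 targets, Trib3 was above all other libraries in male 3 only and Asns in male 4 only. Chac1 was within the range of the others in both. Psat1, Phgdh, Sesn2 and Ppp1r15a were picked for lying outside that range, as a near-background share of members did. They therefore do not show a split particular to ATF4 targets. In the same 2 libraries the sum of 12 glucocorticoid-responsive genes was 35458 and 15527, against 9402 to 12533, and that of 10 striatal genes 18484 and 15078, against 6047 to 9948. The part of these in the member values was not tested.

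**Figure D3:**
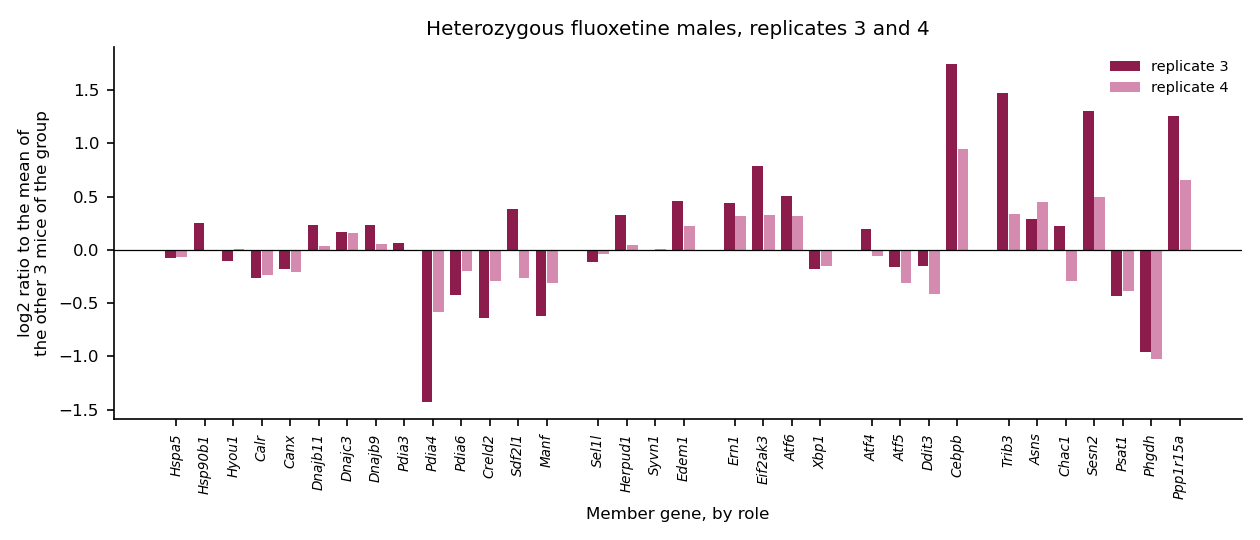
Log2 ratio (vertical axis) of each member in heterozygous fluoxetine males 3 and 4 to the mean of the other 3 mice of that group, by role. Cebpb, Trib3, Sesn2 and Ppp1r15a of male 3 rise highest, and Pdia4 of male 3 and Phgdh of both fall lowest.

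Between genotypes members were called in both directions. Over all drugs 6 members were called in limma between heterozygous and wild-type mice, beside 21.4% of all genes, so 6 of 33 was near the background share. Sesn2 was higher in heterozygous mice by 0.24 ± 0.05 (limma adjusted p = 0.00589), with a lowest, median and highest level of 335, 391 and 883 in the 30 heterozygous mice, against 306, 345 and 429 in the 29 wild-type mice. 26 of 30 heterozygous mice were above the wild-type mean of their sex, and Sesn2 was also called without fluoxetine males 3 and 4 (limma adjusted p = 0.00173). Creld2 (0.13 ± 0.05) and Ern1 (0.11 ± 0.04) were also higher, with limma adjusted p-values of 0.0398 and 0.0426.

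Asns was lower in heterozygous mice by -0.14 ± 0.05 (limma adjusted p = 0.0395), with 1173, 1987 and 2751 as the lowest, median and highest level, against 1719, 2179 and 2506 in wild-type mice. Sel1l was lower by -0.10 ± 0.03 (limma adjusted p = 0.0261), with 3808, 5314 and 5817 in heterozygous mice, against 4416, 5617 and 6374 in wild-type mice. Canx was lower by -0.06 ± 0.02 (limma adjusted p = 0.0492). The ranges of the genotypes overlapped in all 33 members. Without fluoxetine males 3 and 4, limma adjusted p-values were 0.0905 for Ern1 and 0.0991 for Canx, and Atf6 (0.0467) and Phgdh (0.0162) were called instead. Leaving out single libraries kept the calls of Sesn2 and Sel1l in all 59 cases.

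Under vehicle alone 1 member was called in limma, Asns, beside 13.1% of all genes. It averaged 1866 ± 423 in heterozygous vehicle mice and 2193 ± 219 in wild-type vehicle mice (SD, n = 10 each), a change of -0.26 ± 0.08 (limma adjusted p = 0.037), which was lost in 12 of 20 cases of leaving out 1 library. Without fluoxetine males 3 and 4 the count under vehicle was 5. Under lithium and under fluoxetine 0 members were called between genotypes in limma and 0 by edgeR, with 6 and 7 members at an unadjusted p under 0.05, beside 18.3% and 14.7% of all genes, and 0.0112% of all genes were called under each drug. Under vehicle 14 of 16 olfactory bulb genes were higher in heterozygous mice (median 1.40), with a summed level of 7211 to 70836 against 7246 to 44422, and 5 of 8 cortical pyramidal genes were lower (median -0.28). None of these markers was at 0 throughout a group. With the olfactory bulb level as a covariate 0 members were called under vehicle (Asns -0.06 ± 0.06) and 0 over all drugs (Sesn2 0.22 ± 0.05, limma adjusted p = 0.0502). For these fits, and for that without fluoxetine males 3 and 4, the share of all genes called is not given here. Their counts are therefore not results about the members alone.

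**Figure D4:**
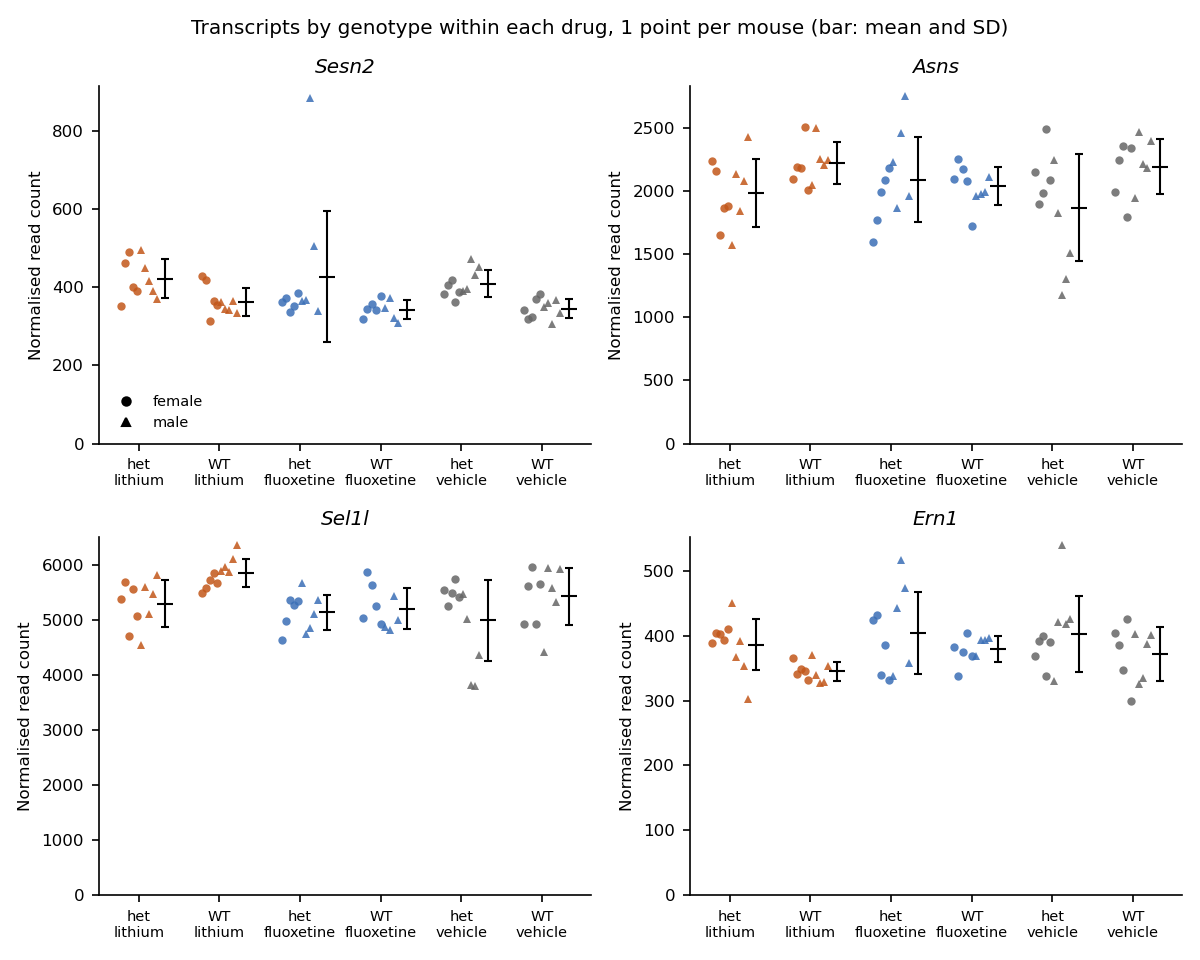
Normalised read count (vertical axis, from 0) of Sesn2, Asns, Sel1l and Ern1 in each mouse, with heterozygous left of wild-type mice within each drug, circles for females, triangles for males and bars for the mean and SD. The 2 highest Sesn2 points, 883 and 504, are heterozygous fluoxetine males, and the lowest Asns points are heterozygous vehicle males.

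The genotype difference under vehicle was called in limma as differing between the sexes for 3 members, Atf6, Asns and Sel1l. Of all genes 16% were called, so 3 of 33 was not above the background share. Leaving out single libraries ended the call in 5 of 20 cases for Atf6, 9 for Asns and 13 for Sel1l. Asns and Sel1l were also not called by edgeR. Female minus male, the genotype effects differed by 0.65 ± 0.18 for Atf6, 0.50 ± 0.17 for Asns and 0.31 ± 0.11 for Sel1l, with limma adjusted p-values of 0.0196, 0.0361 and 0.044. Atf6 averaged 3059 ± 350 in heterozygous females given vehicle, against 2812 ± 450 in wild-type females (SD, n = 5 each). In males it averaged 2198 ± 620 in heterozygous mice, against 3076 ± 455 in wild-type mice (SD, n = 5 each). The heterozygous vehicle males were thus low, with a lowest Atf6 level of 1664.

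The summed olfactory bulb level was 17435 to 70836 in those heterozygous vehicle males, against 7246 to 12684 in wild-type vehicle males, with no overlap. In females it was 7211 to 37098 in heterozygous vehicle mice, against 8526 to 44422 in wild-type vehicle mice. With that level as a covariate the difference between the sexes was 0.21 ± 0.14 for Atf6, 0.07 ± 0.12 for Asns and 0.10 ± 0.10 for Sel1l, and 0 members were called in limma. The share of all genes called in that fit is not given here, so the loss of calls is not shown to be particular to these members.

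Across mice some members varied together more closely than others, although no clustering was run. Each value was taken as the deviation from the mean of its group, which removes mean differences between groups, and fluoxetine males 3 and 4 were left out. Over the 57 libraries the median Pearson correlation of 91 pairs of ER chaperones was 0.645 (Spearman 0.607), with a range of -0.085 to 0.896. Between ER chaperones and integrated stress response factors (56 pairs) the median was 0.018 (Spearman 0.045), and between ER chaperones and ATF4 targets (98 pairs) it was -0.024 (Spearman -0.037). The mean of the ER chaperones went with that of ERAD genes at 0.667 (Spearman 0.684) and that of sensor genes at 0.551 (Spearman 0.578). With the mean of the integrated stress response factors it was at -0.016 (Spearman 0.022), and with that of ATF4 targets at 0.019 (Spearman 0.007). These are descriptions over libraries that share scaling and dissection. The strongest pair was Hspa5 with Manf at 0.896 (Spearman 0.878). Of the sensor genes, Xbp1 lay with the chaperones (0.799 with Hspa5, Spearman 0.809). With the mean of the ER chaperones Xbp1 correlated at 0.828, Atf6 at 0.308, Eif2ak3 at 0.271 and Ern1 at -0.406.

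A further set, picked from the strongest pairs, crossed the roles and was not apart from the ER chaperones. With the mean of the ER chaperones its genes Sel1l, Asns and Atf6 correlated at 0.563, 0.428 and 0.308. Asns, Atf6 and Sel1l correlated with each other at 0.847 to 0.860 (Spearman 0.806 to 0.826). They are the same 3 genes whose genotype effect under vehicle was called as differing between the sexes. Phgdh ran against Asns at -0.807 (Spearman -0.779) although both are ATF4 targets, and went with Atf5 at 0.744 (Spearman 0.747). This set went with the markers of cell types as well. With the mean of the 8 cortical pyramidal genes the correlation was 0.923 for Asns (Spearman 0.911), 0.802 for Atf6 (0.784), 0.814 for Sel1l (0.775) and -0.734 for Phgdh (-0.755). With that of the 16 olfactory bulb genes it was -0.763 for Asns (Spearman -0.810), -0.702 for Atf6 (-0.756), -0.640 for Sel1l (-0.711) and 0.668 for Phgdh (0.697). The part of these markers in the set was not tested. The median over 21 pairs of ATF4 targets was 0.062 (Spearman 0.083).

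**Figure D5:**
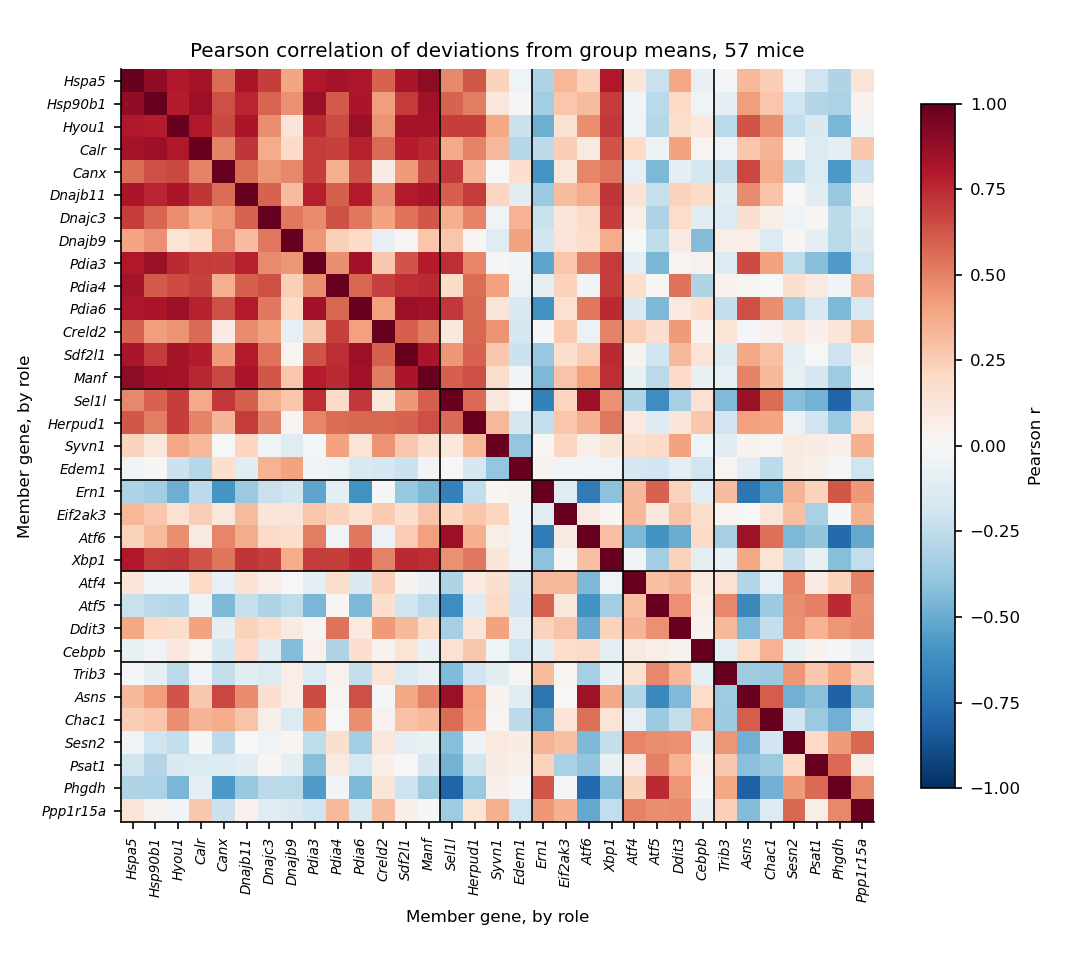
Pearson correlation (colour, from -1 to 1) between members of their log2 deviations from group means over 57 mice, in order of role with lines between roles. The ER chaperones form a block with a median of 0.645, joined by Xbp1, while Asns, Atf6 and Sel1l correlate at 0.847 to 0.860.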

How the data were processed

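Per the labels' protocols, strand-specific polyadenylated RNA libraries were made from prefrontal cortex. The submitters' processing notes name Salmon 0.11.2, R 3.6.0, DESeq2 1.19.11 and GRCm38, with no role given. The authors deposited normalised values, a signal per gene and library, here called normalised read counts: gene counts divided by a size factor. Every value came out as whole reads (100% within 0.01 counts), although for 3 libraries the step was too near 1 to show it alone. 0 value columns lacked a sample.

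Values were analysed as log2(value + 1) after a filter that kept 17901 of 18088 genes (a value of 10 reached by 4 libraries). The model was limma 3.58.1 under R 4.3.3 across all genes, with a mean for each of 12 groups (47 residual degrees of freedom), and p-values were adjusted by Benjamini-Hochberg over all genes in each of 16 comparisons. Called means adjusted p under 0.05. edgeR 4.0.16 quasi-likelihood on the recovered counts was an alternative. All 33 members are named, with values by mouse for up to 6 called members of a comparison by smallest p; other genes come from lists, up to 4 called genes of each by smallest p. The members and lists were chosen with earlier results of these data known. Simulated 1.25-fold changes were recovered at 65% for lithium in heterozygous mice and 89% over both genotypes, with 8 and 6 false calls among 17901 genes. In the simulation mice were drawn independently, with no shared dissection or litter variation, and only genes above a set mean level were changed. Most members called under lithium changed by less than 1.25-fold, so these shares do not give the power for them. Gene positions and exon lengths follow the GENCODE annotation of GRCm38, promoters RefSeq on GRCm38.p6. Replicates differed by more than sampling noise (chi-square per gene 3.17 to 87.5 over 116 pairs).
Alternatives were a pseudocount of 5, no filter, a filter at 100, TMM scaling, quantile normalisation, a replicate block, the olfactory bulb level as covariate, the groups compared alone, fits without the 2 outlying libraries, and leaving out each library.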

Additional observations from a re-analysis of the deposited data

Results flagged for a closer look

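In 396 groups of 4 or 5 mice (33 members in 12 groups), 26 single mice lay far from the others of their group, 17 above and 9 below. Chance alone flags about 1 in 20 groups. Values are normalised read counts. Wild-type vehicle male 5 was high in 5 members, with Calr at 10229.5, Pdia4 at 1086.47, Sdf2l1 at 300.84, Xbp1 at 2328.45 and Atf4 at 3506.39. Calr was at 7102 to 7954 in the other 4 mice of that group. High values were Hsp90b1 at 10907.5 in heterozygous fluoxetine male 3, Hsp90b1 at 9312.36 in heterozygous vehicle female 4, Dnajb11 at 1826.54 in wild-type fluoxetine female 4, Dnajb11 at 1895.76 in wild-type lithium male 4. High values were Dnajc3 at 2255.37 in heterozygous lithium female 2, Pdia3 at 5466.26 in heterozygous vehicle female 4, Sdf2l1 at 382.82 in wild-type fluoxetine female 4, Manf at 1264.95 in wild-type lithium female 2. High values were Atf5 at 482.86 in wild-type vehicle female 4, Trib3 at 13.04 in wild-type fluoxetine female 1, Psat1 at 2779.46 in wild-type fluoxetine female 5, Psat1 at 2874.15 in wild-type lithium female 1. Low values were Hspa5 at 6117.98 in heterozygous fluoxetine female 1, Hyou1 at 2250.96 in heterozygous fluoxetine female 1, Hyou1 at 2350.26 in heterozygous lithium male 1, Calr at 8727.45 in heterozygous lithium female 1. Low values were Dnajb9 at 1070.76 in wild-type fluoxetine male 4, Pdia6 at 2957.77 in heterozygous lithium female 3, Creld2 at 311.27 in heterozygous lithium female 1, Ern1 at 368.93 in wild-type fluoxetine male 1. Low values were Cebpb at 53.53 in heterozygous vehicle female 2. Heterozygous fluoxetine female 1 was the low mouse for both Hspa5 and Hyou1, and Hspa5 stood at 8500 to 9202 in the other 4 females.

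The genotype effect under vehicle differed between females and males, by limma's test of the difference itself, for Atf6 (0.65 on the log2 scale, female minus male), Asns (0.5) and Sel1l (0.31). In each the heterozygous males had the lowest mean. Of all genes 16% were called in that contrast, so 3 of 33 members was not above the background share. The calls were lost in 5, 9 and 13 of 20 cases of leaving out 1 library. The 16 olfactory bulb genes were all called in the same contrast (median -2.85), and their part in these values was not tested. The covariate fit called 0 members, with no share of all genes given here.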

How the results depend on the processing

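The 13 calls for lithium over both genotypes were all kept in each of the 11 alternatives, and without heterozygous fluoxetine males 3 and 4 a lower call, Cebpb, was added to them. Leaving out single libraries gave 11 to 15 members, with 10 of 13 calls kept in every case and the calls of Canx, Syvn1 and Manf lost in 19, 8 and 7 of 40 cases. Other counts of called members were smaller and moved more.

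Without heterozygous fluoxetine males 3 and 4 the count was 6 (2 with all libraries) for lithium in heterozygous mice, 1 (0) for lithium in wild-type mice, 0 (3) for fluoxetine in heterozygous mice, 1 (0) for fluoxetine in wild-type mice, 1 (2) for fluoxetine over both genotypes and 5 (1) for genotype under vehicle. With the olfactory bulb covariate it was 5 for fluoxetine over both genotypes and 0 for genotype under vehicle, for genotype over all drugs (6) and for the sex difference of the genotype effect (3). With both changes it was 7 for lithium in heterozygous mice and 4 in wild-type mice, 0 and 6 for fluoxetine in heterozygous mice and over both genotypes, and 0, 1 and 0 for those 3 genotype results. With only the groups compared it was 0, 1 and 0 for fluoxetine in heterozygous mice, in wild-type mice and over both, and 0 for the sex difference. Quantile normalisation gave 4 for fluoxetine over both genotypes, 3 for genotype over all drugs and 5 for the sex difference. A filter at 100 gave 7 (4) for lithium against fluoxetine and 3 for genotype under vehicle, where edgeR gave 2. The causes were not tested. Here and in the results above, the share of all genes called in an alternative fit is not given, so a moved count is not a result about the members alone. The same holds for the counts that follow.

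Leaving out single libraries gave 0 to 3 for lithium in heterozygous mice, 0 to 2 in wild-type mice (2 without wild-type vehicle male 5), 0 to 5 for fluoxetine in heterozygous mice, 0 to 1 in wild-type mice (1 without wild-type vehicle female 4) and 1 to 4 over both. It gave 2 to 11 for lithium against fluoxetine, 0 to 7 for genotype under vehicle (7 without heterozygous vehicle male 1 or wild-type vehicle female 4), 0 to 1 for genotype under fluoxetine (1 without heterozygous fluoxetine male 2 or 5), 2 to 7 over all drugs, 0 to 1 for the genotype difference of the fluoxetine effect (1 without heterozygous fluoxetine male 2 or heterozygous vehicle male 1) and 0 to 4 for the sex difference.

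Replicate numbers did not pair mice (median correlation of same-numbered deviations -0.0036 over 319 pairs, -0.0020 for other numbers). A fit with the replicate block gave 13 called members for lithium over both genotypes and changed no count. Depth limits Trib3 most, which averaged 6.14 normalised read counts in lithium mice and 6.89 in vehicle mice.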
